A study of Mus musculus with 2 samples.

Results

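Protamine 1 (Prm1), protamine 2 (Prm2), protamine 3 (Prm3), transition protein 1 (Tnp1) and transition protein 2 (Tnp2) were followed by symbol through whole-testis single-cell libraries of RAD21L KO (Rad21l-/-) and WT (Rad21l+/+) mice, all males of 55 days. They are 5 of the 41459 genes listed in each matrix. There was 1 library per genotype, from droplet capture, and the labels give neither the number of animals per library nor the part of Rad21l that is lacking. RAD21L is a cohesin subunit made in meiotic germ cells. Values are counts of UMIs, the molecular tags that mark single captured transcripts, given per barcode (a droplet) or scaled to the library or class total as CPM. Ranges in parentheses are 95% intervals for counting error only, and with no replicates no test was run.

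In mammalian spermatids, histones are removed from DNA and replaced in steps. Transition proteins bind the DNA first and are then replaced by the protamines, small basic proteins that pack the sperm genome. Prm1 and Prm2 encode the protamines, Prm2 as a precursor that is cut to its mature form. Prm3 lies in the same gene cluster but encodes an acidic protein that has been placed in the cytoplasm of mouse spermatids. Transcription of these genes starts in round spermatids, and the mRNAs are stored for days before they are translated. Free RNA from broken spermatids enters every droplet of a testis preparation, so these abundant mRNAs are also found beside cells that do not make them.

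The 5 promoters are shown because the order in which the mRNAs of their genes rise is the main result in WT spermatids. They are the 250 bases before each gene start from RefSeq (GRCm38.p6, minus strand for all 5), whereas the counts were made on GRCm39 per the submitters' processing notes, so the positions serve only to identify the sequences. Prm1 (chr16:10796824-10797073), Prm2 (chr16:10792106-10792355), Prm3 (chr16:10790915-10791164) and Tnp2 (chr16:10788656-10788905) follow one another on chromosome 16, while Tnp1 (chr1:73015900-73016149) lies on chromosome 1. Capitals mark matches to TGANNTCA, TATAA or TATATA on either strand.
Prm1: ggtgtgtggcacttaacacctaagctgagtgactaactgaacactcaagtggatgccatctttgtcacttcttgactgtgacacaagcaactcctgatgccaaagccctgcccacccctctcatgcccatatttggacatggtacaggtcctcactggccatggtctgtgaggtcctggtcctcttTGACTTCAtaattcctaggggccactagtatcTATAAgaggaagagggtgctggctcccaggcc
Prm2: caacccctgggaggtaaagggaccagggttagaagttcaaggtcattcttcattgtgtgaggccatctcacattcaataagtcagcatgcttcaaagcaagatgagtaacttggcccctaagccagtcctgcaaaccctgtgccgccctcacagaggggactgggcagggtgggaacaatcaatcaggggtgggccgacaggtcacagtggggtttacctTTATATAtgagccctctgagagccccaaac
Prm3: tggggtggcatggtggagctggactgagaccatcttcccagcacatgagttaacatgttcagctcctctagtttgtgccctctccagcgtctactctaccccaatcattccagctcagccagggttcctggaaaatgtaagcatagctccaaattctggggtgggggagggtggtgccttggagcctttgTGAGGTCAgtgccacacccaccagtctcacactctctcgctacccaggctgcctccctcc
Tnp1: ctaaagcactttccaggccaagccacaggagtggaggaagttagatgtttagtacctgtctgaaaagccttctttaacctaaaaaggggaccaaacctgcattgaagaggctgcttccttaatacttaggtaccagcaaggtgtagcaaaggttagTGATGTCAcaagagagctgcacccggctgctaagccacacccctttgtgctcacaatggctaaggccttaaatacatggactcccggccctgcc
Tnp2: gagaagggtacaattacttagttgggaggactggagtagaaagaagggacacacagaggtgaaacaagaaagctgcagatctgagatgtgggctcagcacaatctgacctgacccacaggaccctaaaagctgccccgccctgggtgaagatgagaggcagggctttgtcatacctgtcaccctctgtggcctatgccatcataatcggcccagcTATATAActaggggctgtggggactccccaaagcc
TGACGTCA is the full site of the CREB and CREM transcription factors, and TGANNTCA is the same site with its middle bases free. The full site was in none of the 5 windows and in 1.55% of 32851 mouse promoters of the same length. The relaxed site was in Prm1 (TGACTTCA at position -64 from the start), Prm3 (TGAGGTCA at -60) and Tnp1 (TGATGTCA at -94), and in 11.9% of all promoters. TATAA, the core of the TATA box, was in Prm1 at -32, in Tnp2 at -33 and, read on the other strand, in Prm2 at -30, and in 22.8% of all promoters. TATATA, found in 5.25% of promoters, overlapped it in Prm2 at -29 and in Tnp2 at -35. These are letter matches and were not tested for binding.

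The KO library held 7118 barcodes and 28001992 UMIs, and the WT library 5415 barcodes and 33096309 UMIs. After removal of barcodes with fewer than 500 genes or over 20% mitochondrial UMIs, 6381 KO barcodes (median 3460 UMIs) and 5400 WT barcodes (median 2230.5 UMIs) were kept. Barcodes were put into 13 classes by marker genes, none of them a protamine or transition protein gene, and the class names carry "-like" for that reason. KO barcodes gated as spermatogonia-like, early prophase-like, Sertoli-like, Leydig-like, stromal-like and other somatic classes. No kept KO barcode (0 of 6381, which allows a share of up to 0.0470%) scored highest for a spermatid class. In WT, the gates found 1178 pachytene-like barcodes, 1370 of elongating spermatids and 603 of round spermatids. No class was given to 21.9% of KO and 37.1% of WT kept barcodes. The libraries shared 14 barcode sequences, and in KO none of these held a UMI of the 5 genes. Rad21l itself stood at 15.2 CPM in KO (10.2 to 21.7, 30 UMIs) and 44.4 CPM in WT (26.3 to 70.2, 18 UMIs) in early prophase-like barcodes, and at 3.96 and 2.48 CPM over all barcodes of KO and WT. Since Rad21l transcripts were counted in KO and the labels do not say what is lacking, these counts do not check the genotype, which rests on the labels.

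The first comparison set the level of each gene in the KO testis against the WT testis. The 5 genes made up 6.29% of all WT UMIs and were almost absent from the KO library. Prm1 stood at 0.436 CPM in KO (0.225 to 0.762, 12 UMIs) and 22265 CPM in WT (22214 to 22316), a log2 ratio of -15.64 (-16.59 to -14.83). Prm2 stood at 0.727 CPM in KO (0.444 to 1.123, 20 UMIs) and 19047 CPM in WT (log2 -14.68, -15.39 to -14.05). Tnp2 stood at 0.218 CPM in KO (0.0800 to 0.475, 6 UMIs) and 10774 CPM in WT (log2 -15.59, -17.04 to -14.47). Each of these 3 genes had at most 20 UMIs in KO, and the intervals of the libraries lie far apart.

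Tnp1 stood at 1.34 CPM in KO (0.947 to 1.85, 37 UMIs) and 9688 CPM in WT (log2 -12.81, -13.32 to -12.35). Prm3 was the least abundant of the 5 in both libraries, at 0.145 CPM in KO (0.0396 to 0.372, 4 UMIs) and 1183 CPM in WT (log2 -12.99, -14.87 to -11.63). All 5 genes were at least 4-fold lower in KO over all barcodes, as were 26.4% of the 20014 genes with at least 50 UMIs, while 30.4% were at least 4-fold higher. The median log2 ratio was -14.63 over the 5 genes and 0.57 over all genes tested. The markers of elongating spermatids were low in KO as well: the 21 genes had 195 UMIs there, 58 of them from Car2, and 4 had none.

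**Figure D1:**
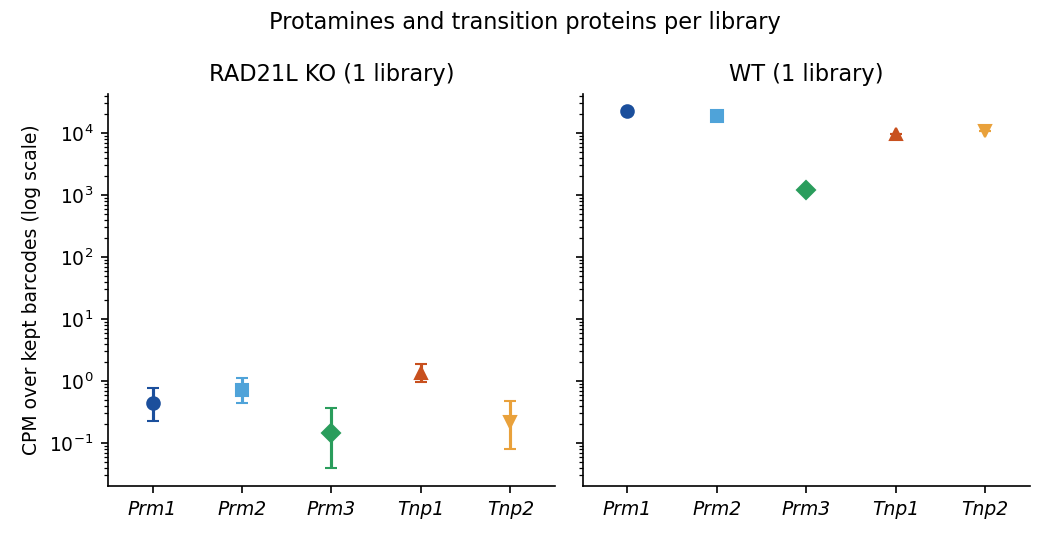
CPM of the 5 genes (log axis) over kept barcodes of the KO library (left) and the WT library (right), with exact Poisson 95% intervals as bars. The KO values lie between 0.145 and 1.34 CPM and the WT values between 1183 and 22265 CPM.

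The KO library was then searched barcode by barcode. The 5 genes gave 82 UMIs in 81 of 7118 barcodes (1.14%). The highest count in a barcode was 2, and no barcode held UMIs of more than 1 of the 5 genes, whereas a WT barcode held 385 of their UMIs on average. The KO barcodes with such a UMI were the deeper ones, at a median of 5417 UMIs against 2835.5 over all KO barcodes. Of the 82 UMIs, 26 were in Sertoli-like, 8 in Leydig-like and 19 in ungated barcodes.

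The mix of the 5 genes differed between the libraries. Tnp1 gave 45.1% of their UMIs in KO (34.1% to 56.5%) and 15.4% in WT, and Prm1 14.6% in KO and 35.4% in WT. Of the 37 KO Tnp1 UMIs, 18 lay in 17 barcodes of 1 KO cluster of 586 barcodes. This cluster was led by Mirt1, P3h3, Crabp1 and Sall4, was left unnamed, and held 92 barcodes gated as undifferentiated and 247 gated as differentiating spermatogonia-like. It was singled out after its values were seen. Tnp1 stood at 4.61 CPM there (2.73 to 7.28) and at 0.805 CPM (0.485 to 1.26) in the other kept KO barcodes, a ratio of 5.73 (2.83 to 11.5). A Tnp1 UMI was found in 2.90% of its barcodes (median 6281 UMIs) and in 0.328% of the others (median 3041 UMIs). The same cluster held 1 Prm1 UMI, 1 Prm3 UMI and none of Prm2 or Tnp2. By gate, Tnp1 was highest in undifferentiated spermatogonia-like KO barcodes, at 8.83 CPM (3.24 to 19.2, 6 UMIs in 99 barcodes), where the other 4 genes had 0 UMIs. All 6 UMIs lay in the same cluster and are part of its 18, so the gate is not a separate observation. The count matrices do not show whether these UMIs came from Tnp1 itself or from a transcript that overlaps it, so its level in these KO barcodes is uncertain.

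The second comparison asked how the 5 mRNAs were spread over the cell classes of each library. In WT, they were in nearly every barcode. All but 1 of 5415 WT barcodes held a Prm1 UMI, all but 2 a Prm2 UMI, all but 6 a Tnp2 UMI and all but 8 a Tnp1 UMI, while 973 lacked Prm3. The sum of the 5 ranged from 3 UMIs to 32.3% of a barcode's UMIs, with a median of 59 UMIs.

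Classes that should not make these mRNAs held a low and similar number per barcode. Prm1 had 20.03 UMIs per barcode in WT differentiating spermatogonia-like, 18.8 in early prophase-like, 21.9 in pachytene-like, 18.2 in Sertoli-like and 17.1 in Leydig-like barcodes. Over these first 4 classes, which hold at least 50 barcodes each (1383 barcodes), the averages were 21.4 UMIs of Prm1, 17.8 of Prm2, 1.70 of Prm3, 10.9 of Tnp1 and 10.9 of Tnp2. These averages are called the free RNA level from here on. Of the 1383 barcodes 1178 were pachytene-like. The same level was used at all depths, and the source of these UMIs was not tested.

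In KO, the same classes held almost none. Sertoli-like barcodes held 26 UMIs of the 5 genes in 1949 KO barcodes and 3502 in 67 WT barcodes, a log2 ratio per barcode of -11.94 (-12.55 to -11.38). In early prophase-like barcodes there were 4 UMIs in 461 KO barcodes and 3918 in 71 WT barcodes (log2 -12.63, -14.51 to -11.28). In differentiating spermatogonia-like barcodes there were 7 in 458 KO barcodes and 4122 in 67 WT barcodes (log2 -11.97, -13.29 to -10.93). KO was lower than WT by a similar factor in these 3 classes, whose intervals overlap. In undifferentiated spermatogonia-like barcodes the log2 ratio was -9.71 (-11.16 to -8.58), from 6 UMIs in 99 KO barcodes, all of Tnp1, and 810 in 16 WT barcodes.

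**Figure D2:**
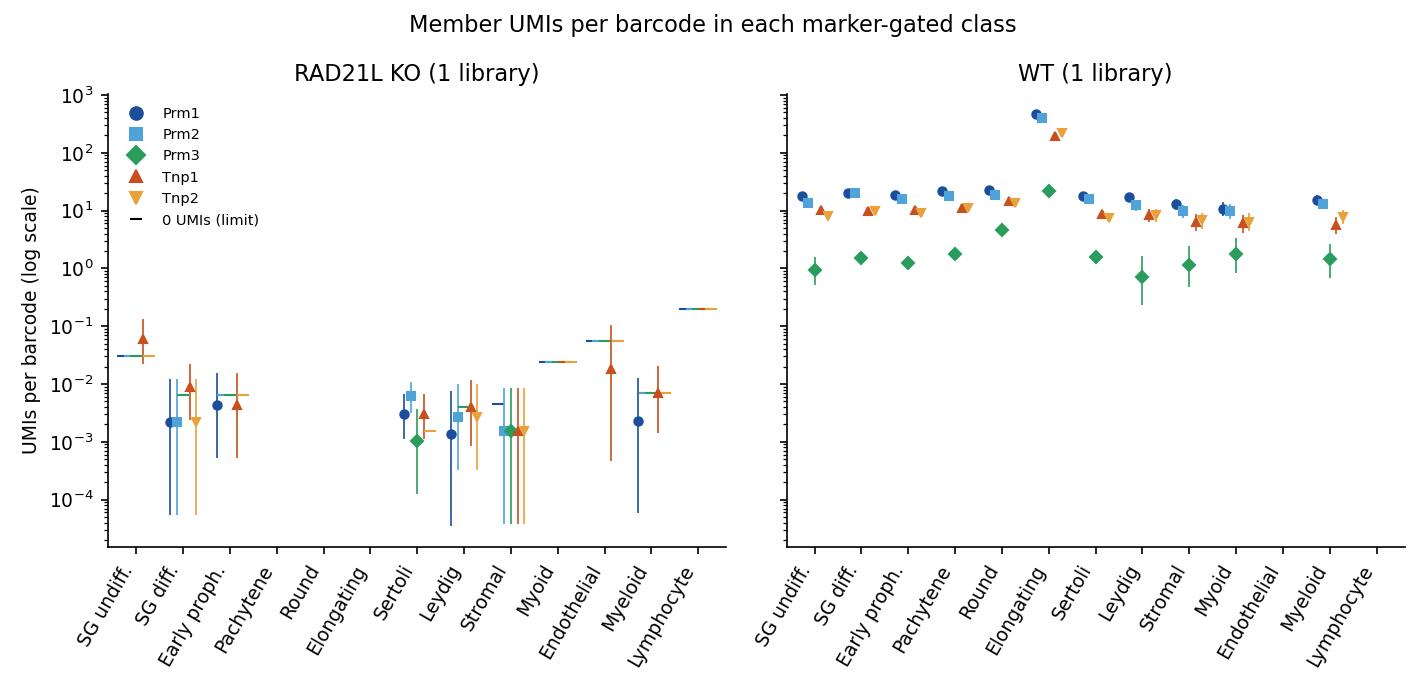
UMIs per barcode (log axis) of the 5 genes in each marker-gated class with at least 5 barcodes, KO left and WT right, with exact Poisson 95% intervals. Horizontal dashes mark 0 UMIs, drawn at the limit of 3 counts. WT classes other than elongating spermatids sit between 10.6 and 22.5 Prm1 UMIs per barcode. Among KO points that are not dashes, the highest is 0.0606 for Tnp1 in undifferentiated spermatogonia. The dashes of the 15 KO lymphocyte-like barcodes lie above it.

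Over all gated WT classes outside spermatids, CPM moved with depth far more than the number per barcode did. Prm1 had 14.8 UMIs per barcode in barcodes of 500 to 1500 UMIs and 30.3 in those of 50000 UMIs or more, while its CPM was 11939 in the shallow group and 529 in the deep group. Prm3 had 1.15 and 2.57 UMIs per barcode in the same groups, and 931 and 44.8 CPM. A level in CPM therefore does not compare these genes between WT classes of different depth, and 58.9% of kept WT barcodes had fewer than 3000 UMIs. Spermatid classes are therefore also compared below in UMIs per barcode, and the ordering uses barcodes with at least 3000 UMIs.

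**Figure D3:**
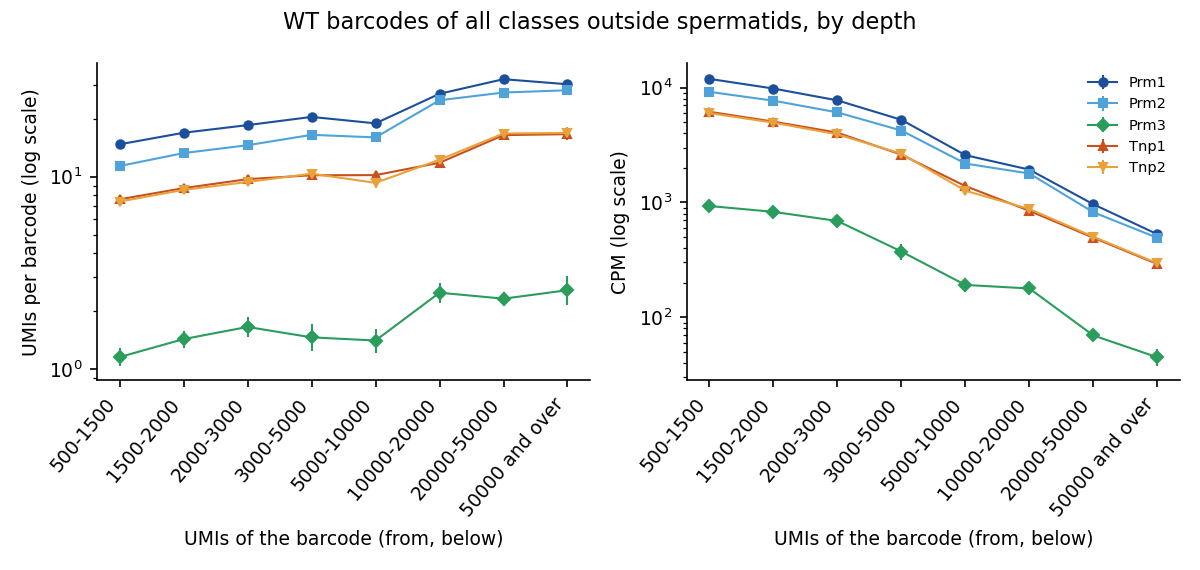
UMIs per barcode (left) and CPM (right) of the 5 genes, both on log axes, in WT barcodes of all gated classes outside spermatids grouped by total UMIs, with exact Poisson 95% intervals. From the shallowest to the deepest group Prm1 is at 14.8 and 30.3 UMIs per barcode but at 11939 and 529 CPM.

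The ratio of the 5 genes to each other was compared between classes outside spermatids and the whole WT library. Prm1 was 34.2% of the 5 over all gated classes outside spermatids (33.9% to 34.5%) and 35.4% in the whole library. In Sertoli-like barcodes the mix was 34.9% Prm1, 31.0% Prm2, 3.03% Prm3, 16.7% Tnp1 and 14.4% Tnp2. In elongating spermatid-like barcodes it was 35.7% Prm1, 30.8% Prm2, 1.65% Prm3, 14.95% Tnp1 and 16.9% Tnp2. Prm3 had a larger share outside elongating spermatids, with 2.64% (2.48% to 2.79%) in pachytene-like barcodes of at least 3000 UMIs.

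Elongating spermatid-like barcodes carried most of the mRNA. They were 25.4% of kept WT barcodes and held 86.9% of the Prm1, 87.5% of the Prm2, 85.2% of the Tnp2, 83.6% of the Tnp1 and 75.4% of the Prm3 UMIs. Prm1 had 467 UMIs per barcode there, Prm2 402, Tnp2 222, Tnp1 196 and Prm3 21.5. The 10th and 90th percentiles were 19 and 1021 for Prm1 and 97.7 and 736 for Prm2, so the class includes barcodes at the free RNA level of Prm1. Between elongating spermatid-like and pachytene-like WT barcodes, both with at least 3000 UMIs, all 5 genes were at least 4-fold higher in CPM in the elongating class, as were 16.0% of 12855 genes tested. These classes differ in depth, at means of 7401 UMIs in the elongating and 28040 UMIs in the pachytene-like class, so an equal number of UMIs per barcode gives a 3.79-fold higher CPM in the elongating class. In UMIs per barcode all 5 genes were still at least 4-fold higher, as were 8.46% of all genes tested. Prm1 had 557 UMIs per barcode in the elongating and 29.3 in the pachytene-like class, and Prm3, with the smallest ratio of the 5, had 25.4 and 2.28. The median log2 ratio of the 5 genes was 6.04 in CPM and 4.12 per barcode, and that of all genes -1.97 in CPM and -3.89 per barcode.

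Round spermatid-like barcodes with at least 3000 UMIs (97 barcodes, median 12037 UMIs) stood out for Prm3. They held 18.6 Prm3 UMIs per barcode, against 2.28 in pachytene-like barcodes of at least 3000 UMIs, and Prm3 was 11.1% of the 5 genes (10.6% to 11.6%). With each barcode thinned to 1000 UMIs, a Prm3 UMI was found in 77.3% of them, in 93.6% of the elongating spermatid-like, in 14.4% of the pachytene-like and in 22.9% of the Sertoli-like barcodes of that depth. Unthinned shares were 100%, 99.5%, 84.7% and 77.1%, at median depths of 12037, 5953, 27709 and 9571 UMIs. Outside spermatids the UMIs per barcode rose far less than depth, so thinning leaves less free RNA in deeper barcodes. The thinned shares are therefore not matched for free RNA. Prm1 stood at 44.2, Prm2 at 38.5, Tnp1 at 34.6 and Tnp2 at 31.8 UMIs per barcode in the round spermatid-like barcodes, closer to their free RNA levels. These values cover only the 97 deeper barcodes. The 506 round spermatid-like barcodes under 3000 UMIs held 55.7 UMIs of the 5 genes per barcode, against 167.7 in the 97.

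The third comparison asked in which order the 5 mRNAs appear. The 1333 WT barcodes with at least 3000 UMIs that scored highest for round or elongating spermatids were ordered by the share of elongating markers in their spermatid marker score, without the 5 genes, and cut into 20 bins. Prm3 was well above its free RNA level in the first bin, where the other 4 were near theirs. By the point at which each gene reached 50% of its own highest bin, the transition protein mRNAs came next, then Prm1 and last Prm2. The highest bin was 8 for Tnp1 and Tnp2, 18 for Prm1 and 20 for Prm2. A 50% point therefore also depends on where a gene was highest.

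In bin 1, Prm3 had 14.04 UMIs per barcode, against a free RNA level of 1.70, while Prm1 had 22.0, Prm2 17.3, Tnp1 16.1 and Tnp2 12.4. Less free RNA, Prm3 was then at 22.4% of its highest bin, Tnp1 at 0.979% and Tnp2 at 0.237%. In bin 2 Prm3 had 17.2 UMIs per barcode and the other 4 had between 42.2 and 57.9. By bin 4 Prm1 had 430, Prm2 299.8, Tnp2 265 and Tnp1 213 UMIs per barcode, while Prm3 had 19.9. Between bins 1 and 4 the UMIs per barcode of Prm3 thus changed far less than those of the other 4.

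The point at which a gene, less free RNA, reached 50% of its own highest bin was read in CPM with the range that counting error allows. Prm3 reached it at bin 2.84 (2.41 to 3.12). Tnp2 reached it at 3.17 (3.14 to 3.19) and Tnp1 at 3.19 (3.17 to 3.22), ranges that overlap, so the transition proteins are not put in order. Prm1 followed at 3.52 (3.50 to 3.54) and Prm2 at 4.17 (3.99 to 4.38). The points of Tnp2, Tnp1 and Prm1 all lie between the centres of bins 3 and 4. Their order thus rests on linear interpolation and on the highest bin of each gene. At 10% of the highest bin the points were 1.00 for Prm3, 2.01 for Tnp1, 2.07 for Tnp2, 2.20 for Prm1 and 2.25 for Prm2. Prm3 was already past 10% in the first bin, so its 1.00 is the start of the ordering and not a crossing.

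The order was read on other orderings too. Along diffusion pseudotime the 50% points were 2.23 for Prm3, 3.27 for Tnp2, 3.32 for Tnp1, 3.70 for Prm1 and 4.16 for Prm2. Along the first principal component they were 3.26 for Tnp2, 3.33 for Tnp1, 3.40 for Prm3, 3.65 for Prm1 and 3.996 for Prm2, so Prm3 was not first at 50% there, nor when barcodes of any depth were ordered. On the first ordering, the interval of the lead of Prm3 over Tnp1 held 0 when the 5 genes were left out of the total (0.372% of ordered barcodes, -0.54 to 1.24) and without the 5% of barcodes with most UMIs (1.84%, -0.14 to 4.08). At 10% Prm3 was in bin 1 on all 3 orderings, while on diffusion pseudotime Prm2 (1.79) came before Tnp1 (1.86) and Prm1 (2.02). The median depth of bin 1 was 14011 UMIs against 5094 in bin 2, so a 50% point in CPM also moves with depth. In UMIs per barcode Tnp1 followed Prm3 by 8.735% of ordered barcodes (6.96 to 10.5), against 1.785% in CPM. The part of depth in the early Prm3 level was not tested.

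**Figure D4:**
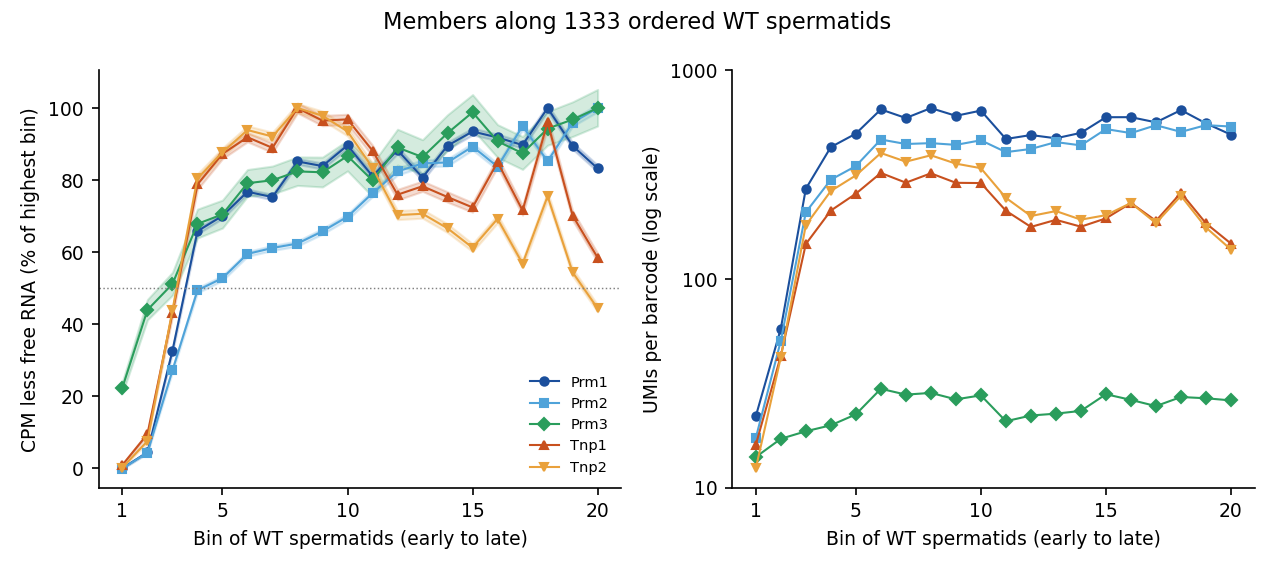
The 5 genes along 20 bins of 1333 ordered WT spermatids: CPM less free RNA as a percent of each gene's highest bin with Poisson 95% bands (left, dotted line at 50%) and UMIs per barcode on a log axis (right). Prm3 is at 22.4% of its highest bin in bin 1, Tnp1 and Tnp2 are highest in bin 8, and Prm2 is highest in bin 20.

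Past these bins the genes parted. Tnp1 and Tnp2 were highest in bin 8, at 37064 and 45219 CPM, and in bin 20 stood at 58.5% and 44.4% of that level, less free RNA. The course between was uneven, with Tnp1 at 96.1% and Tnp2 at 75.5% in bin 18. Prm1 was highest in bin 18 at 89434 CPM, and Prm2 and Prm3 in bin 20 at 82300 and 4009 CPM. The 5 genes together took 0.558% of UMIs in bin 1 and up to 23.4% in bin 18.

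Single barcodes were also set against the free RNA level without bins, with a limit set after seeing the data. A barcode counted as above when it exceeded the 95th percentile of the 485 pachytene-like barcodes of at least 3000 UMIs, which was 45 UMIs for Prm1, 44 for Prm2 and 5 for Prm3. The limit was not matched in depth, at medians of 27709 UMIs in these 485 and 5953 in elongating spermatid-like barcodes of at least 3000 UMIs. Outside spermatids Prm1 had 20.5 UMIs per barcode at 3000 to 5000 UMIs and 32.2 at 20000 to 50000. Of the 1333 ordered barcodes, 1206 were above for Prm2, 1205 for Prm3, 1134 for Prm1, 963 for Tnp2 and 926 for Tnp1, and 872 were above for all 5. Tnp1 and Tnp2 were above together in 912 barcodes, with 14 above for Tnp1 only and 51 for Tnp2 only of the pair. Prm1 was above without Tnp1 in 231 barcodes, and Tnp1 without Prm1 in 23. For Prm1 and Tnp2 these counts were 187 and 16. They show no lead of the transition protein mRNAs, but they take early and late barcodes together and give no order of onset.

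Barcodes above for a single gene were nearly all of 2 kinds. In 57, only Prm3 was above, with a median of 11 Prm3 UMIs at a median depth of 13840 UMIs, and 48 of them lay in cluster WT16, which is led by 1700001F09Rik, Nrm and Tex36. In 53, only Prm2 was above. Only Tnp1 was above in 4 barcodes, only Prm1 in 1 and only Tnp2 in none.

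Clusters of WT barcodes, made without the 5 genes, differed in their mix, and 5 of them are described here. WT16 was left unnamed by its markers, and WT13, WT6, WT7 and WT0 were named elongating spermatids. The clusters named round spermatids were shallow, WT5 (496 barcodes, median 1950 UMIs) and WT10 (489 barcodes, median 1731 UMIs). They held 2.65 and 1.92 Prm3 UMIs per barcode. WT17 (28 barcodes), also named elongating spermatids, is not described further. WT16 (197 barcodes) held 11.0 Prm3 UMIs per barcode but 31.5 Prm1, 26.0 Prm2, 20.2 Tnp1 and 18.9 Tnp2. Clusters WT13, WT6 and WT7, led by Fam71b, Cstl1 and Spata3, held between 606 and 676 Prm1 and between 406 and 489 Prm2 UMIs per barcode. In WT13 and WT6 Tnp1 was at 345 and 317 UMIs per barcode, and in WT7 at 178, where its 10th percentile was 7 and its 90th 466. WT7 thus includes barcodes with Tnp1 at the free RNA level and others well above it.

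Cluster WT0 combined a Prm2 count above that of WT16, but below those of WT13, WT6 and WT7, with low counts of the rest. Its 291 barcodes were led by Azin2, Tppp2, 1700012A03Rik, Tssk6 and Smcp, the last a sperm mitochondrial capsule gene. Prm2 had 320 UMIs per barcode in WT0 (median 319), against 26.0 in WT16, 475 in WT13, 406 in WT6 and 489 in WT7. In WT0 Prm1 had 36.4 UMIs per barcode (median 25), Tnp1 8.27, Tnp2 9.95 and Prm3 5.75. The ratio of Prm2 to Prm1 was 8.81 (8.63 to 8.99), against 0.807 (0.803 to 0.812) in WT7 and 0.655 (0.651 to 0.659) in WT6. Prm2 exceeded Prm1 in 93.1% of WT0 barcodes and in 29.0% of WT7, 1.79% of WT13 and 0.239% of WT6 barcodes. Of the 83 ordered barcodes above for Prm2 and not Prm1, 80 were in WT0, at medians of 416 Prm2 and 29 Prm1 UMIs.

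Only 11 ordered barcodes were above for Prm1 and not Prm2, and none was in WT0. WT0 was shallow, at a median of 3053 UMIs, and 151 of its 291 barcodes had at least 3000. Over its barcodes of any depth the median share of late markers was 0.915, against 0.937 in WT7, so this share does not place WT0 after WT7. The share among the ordered barcodes alone is not given here. In elongating spermatid-like barcodes under 3000 UMIs (233 barcodes) Prm2 was 69.6% and Prm1 15.03% of the 5 genes, against 29.8% and 36.2% at 3000 UMIs or more.

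**Figure D5:**
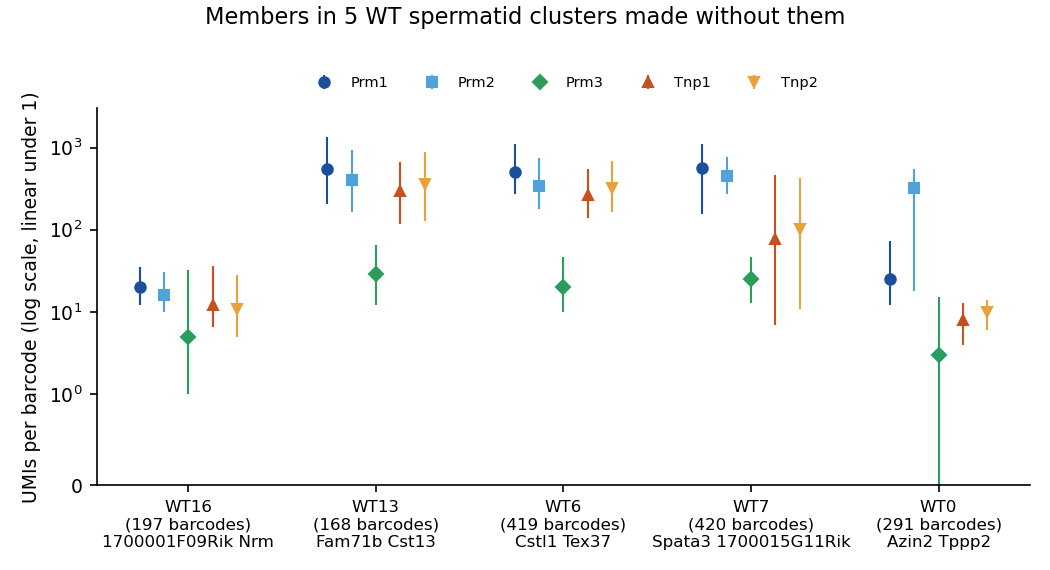
UMIs per barcode of the 5 genes in 5 WT clusters made without them (log axis, linear under 1). Points are at the median and bars run from the 10th to the 90th percentile of barcodes. WT16 was left unnamed by its markers and the others were named elongating spermatids. In WT0 the median is 319 for Prm2 and 25 for Prm1, and in WT16 it is 5 for Prm3.

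For each gene, the 5 genes with the most similar profile over the 20 bins were taken by Pearson's r of log2(CPM + 10), among 2601 genes with at least 500 UMIs. These r values are descriptions, since the bins share 1 library and its depth. Prm1 was nearest to Klk1b8 (0.998), Otub2, Sec23a, Paqr5 and 1700042G07Rik, and Prm2 to 1700015G11Rik (0.999), Lrrc57, Glul, Ttc24 and 1700001C19Rik. Prm3 was nearest to Cdrt4 (0.994), the spermatid histone gene H2bl1, Pkib, Gm38958 and Tspan6. Tnp1 was nearest to Hmgb1-rs17 (0.995), Defb33, Tnp2, Slfnl1 and 1700034E13Rik, and Tnp2 to Tfam (0.997), Tnp1, Hmgb1-rs17, Slfnl1 and Mical3. Among the 5, r ran from 0.869 between Prm3 and Tnp2 to 0.994 between Tnp1 and Tnp2.

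Genes known to act on or beside the protamines were read on the same contrasts, in CPM and in UMIs per barcode. Between elongating spermatid-like and pachytene-like WT barcodes of at least 3000 UMIs, 3 of 15 transcription and mRNA storage factors were at least 4-fold higher and 5 at least 4-fold lower in CPM, against 16.0% and 49.4% of all genes. Per barcode 2 were higher and 10 lower, against 8.46% and 72.8% of all genes. The 3 were Fhl5, a coactivator of CREM, the kinase gene Camk4 and the kinesin gene Kif17. Kif17, at 0.906 UMIs per barcode in the elongating and 0.416 in the pachytene-like class, was not past 4-fold per barcode. The median log2 ratio of the 15 was -1.58 in CPM and -3.51 per barcode. Crem, the activator of many spermatid genes, was highest in bin 1 at 543 CPM and stood at 76.1 CPM in the elongating class. Ybx2, which encodes a protein that binds stored mRNA, stood at 472 CPM in the elongating class and 1088 CPM in the pachytene-like class. Ybx2 and Tbpl1 of this list are markers that gate the pachytene-like class, so their lower levels in the elongating class were partly fixed in advance.

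Of all genes on this contrast, 16.0% were at least 4-fold higher and 49.4% at least 4-fold lower in CPM, and 8.46% and 72.8% per barcode. Of 11 histone variants and linker histones, 4 were at least 4-fold higher and 5 at least 4-fold lower in CPM (median log2 -1.77), and 4 and 6 per barcode (median log2 -3.69). The 4 were the spermatid linker histones H1f7 (2331 CPM in the elongating and 44.9 in the pachytene-like class) and H1f9 (1854 and 86.0), and the variants H2al2a (2019 and 28.7) and H2bl1 (1387 and 24.3). Per barcode H1f7 had 17.3 UMIs in the elongating and 1.26 in the pachytene-like class, and H1f9 13.7 and 2.41. Of 21 genes of histone removal, acetylation and chaperones, 2 were higher and 11 lower in CPM (median log2 -2.05), and 1 and 16 per barcode (median log2 -3.97). The kinase gene Tssk6 stood at 1484 and 33.0 CPM and was higher on both scales. Tssk6 is also a marker that gates the elongating class, so its rise there was partly fixed in advance. Hspa2 of this list is a marker of the pachytene-like class, so its lower level in the elongating class was partly fixed too. The remodeller gene Chd5 (158 and 17.2 CPM) had 1.17 UMIs per barcode in the elongating and 0.482 in the pachytene-like class, under 4-fold. Brdt, a reader of acetylated histones, stood at 65.1 CPM in the elongating and 322 CPM in the pachytene-like class.

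Of 7 genes near the protamine cluster on chromosome 16, 5 had enough UMIs, and 1 was at least 4-fold higher and 3 lower in CPM (median log2 -2.50), and 1 and 4 per barcode (median log2 -4.43). The shares of all genes were 16.0% and 49.4% in CPM and 8.46% and 72.8% per barcode, and nothing is read from the counts of so few genes. Snn was the one that was higher, at 76.9 CPM in the elongating and 1.54 CPM in the pachytene-like class. Socs1, also in this region, stood at 0.238 and 2.43 CPM (2 and 33 UMIs).

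Between the libraries, 2 of the 15 transcription and storage factors were at least 4-fold higher in KO and 11 at least 4-fold lower, against 30.4% and 26.4% of all genes, at a median log2 ratio of -3.32 against 0.57. Crem stood at 19.0 CPM in KO and 190 CPM in WT, and Fhl5 at 0.214 and 141 CPM. Of the 11 histone genes, 2 were higher and 5 lower in KO (median log2 0.27). H1f9 and H2bl1 had 0 UMIs in KO, which allows up to 0.107 CPM, against 801 and 440 CPM in WT, and H1f7 had 2 and H2al2a 1 UMI in KO. H1f1, a linker histone of spermatogonia and early spermatocytes, stood at 230 CPM in KO and 41.9 CPM in WT. Of the 21 histone removal genes 2 were higher and 4 lower in KO (median log2 0.10), and of the 7 neighbours 3 were higher and 1 lower (median log2 1.22). For the histone, histone removal and neighbour lists these are few genes, and nothing is read from shares near or below those of all genes.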

How the data were processed

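The deposited values are raw UMI counts. Per the file headers, Cell Ranger 6.1.2 wrote the matrices. Seurat 4.3 and the GRCm39 build are listed in the submitters' processing notes. Every matrix belongs to 1 library, with 0 columns of other samples. The method of cell calling is not given in the sources used here.

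A barcode needed 500 or more detected genes and a share of UMIs from 24 mitochondrial genes of 20% or less. Each kept barcode was scored on 145 of 147 marker genes: CP10k divided by the 99th percentile of the library set, capped at 1 and averaged per class. A class needed a score of at least 0.15 and 1.5 times the next. Within 10% of the score limit lay 394 KO and 320 WT barcodes. No doublet caller was run; an alternative leaves out the 5% of barcodes with most UMIs. UMIs were summed per class and scaled to CPM. Intervals are exact at 95%: Poisson for levels, Clopper-Pearson for shares, conditional binomial for ratios. Limits at 0 use 3 counts. Clusters were made per library without the 5 genes (Scanpy 1.11.5, Leiden, resolution 1, seed 1). Onset used linear interpolation between bin values. The ordering and profile steps were tested on simulated data. The genes named were the 5 members, fixed lists and the 5 most similar genes per member. The ordering minimum of 3000 UMIs, the limits of the gates and the single-barcode limit were chosen after seeing the data. The members and lists were chosen with earlier results of these data known. Python 3.11.15, numpy 2.4.6, scipy 1.17.1 and pandas 2.3.3 were used.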

Additional observations from a re-analysis of the deposited data

How the results depend on the processing

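No paired analysis was possible because each genotype has 1 library. The log2 ratio of KO over WT stayed between -16.58 and -12.81 for the 5 genes over 6 settings. Counting UMIs per cell gave -13.32 for Tnp1. The number of genes at least 4-fold lower in KO was 5292, and 6671 with a minimum of 10 UMIs. The log2 ratio of the 5 genes between WT elongating spermatid-like barcodes and the 4 classes outside spermatids with at least 50 barcodes was 5.22. It was 5.03 by clusters, 5.39 with the higher gate, 5.53 with the members left out of the total, 4.20 without the 5% of barcodes with most UMIs and 5.90 at 3000 UMIs or more in both, a setting chosen after seeing the data. Between elongating and pachytene-like WT barcodes 2057 genes were at least 4-fold higher in CPM and 1087 in UMIs per barcode, a scale also added after seeing the data.

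Prm1 was 34.2% of the 5 genes outside spermatids by gates and 33.9% by clusters, and 35.37% in the whole WT library. Onset differences are in percent of ordered barcodes. Tnp1 followed Prm3 by 1.78. That turned to -0.36 on the first principal component and to -1.30 with no minimum of UMIs; it was 0.372 (-0.54 to 1.24) with the members left out of the total, 1.84 (-0.14 to 4.08) without the 5% of barcodes with most UMIs, 5.47 on diffusion pseudotime, 5.07 at 10% and 8.74 in UMIs per cell. At 10% Prm3 was already past the limit in the first bin, so 5.07 is counted from the start of the ordering. Prm1 followed Tnp1 by 1.65, and by 1.92 on diffusion pseudotime, 1.94 with 10 bins, 0.9044 at 10% and 0.7198 in UMIs per cell. Prm2 followed Prm1 by 3.24, and by 1.75 on the first principal component, 6.14 with 10 bins, 0.251 at 10%, 4.92 with the members left out of the total, 1.84 in UMIs per cell and 1.94 at 5000 UMIs or more. With 1 choice changed at a time, Prm1 followed Tnp1 and Prm2 followed Prm1 in every setting run; with 2 changed together, 10% on diffusion pseudotime, Prm2 (bin 1.79) came before Prm1 (bin 2.02). The minimum of UMIs was added after seeing the data, and the cause of these shifts was not tested. With 1 library per genotype, differences between mice and between preparations cannot be told apart from genotype, and intervals cover counting error only.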
